A study of Mus musculus with 53 samples.

Results

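NIH-3T3 fibroblasts transduced with EBF1 were compared with NIH-3T3 fibroblasts transduced with PPARg2 at day 2 of hormone-driven adipocyte differentiation. The sample titles gave 4 arrays for EBF1 at day 2 and 4 for PPARg at day 2, 8 of the 53 arrays of the series. NIH-3T3 is an established mouse fibroblast line. The other arrays hold the empty vector at the same day (4 arrays) and the 3 transduced lines at days 0, 4 and 10. Total RNA of each sample was hybridised to 1 Affymetrix mouse array, and the values are the authors' deposited linear intensities, 1 for each of 12488 probe sets.

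PPARg2 is the fat cell form of a nuclear receptor that binds DNA with a retinoid X receptor and switches on genes for fatty acid uptake, lipid storage and lipid oxidation. EBF1, early B-cell factor, is a transcription factor known first from B lymphocyte development, and it also promotes adipogenesis when expressed in fibroblasts. Day 2 lies early in the standard hormone protocol, when preadipocytes still respond to the inducers and re-enter the cell cycle, before most of the fat cell programme is made.

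The groups were the EBF1 vector at day 2, the PPARg2 vector at day 2 and, as the baseline both share, the empty vector at day 2, all after the same unnamed hormones. The labels speak of independent stimulation experiments for the series without saying which arrays came from which. The p-values therefore measure the spread between arrays, which may in part be technical. The labels do not say whether each line is a pool or a clone. In such bulk RNA, fewer cells expressing a gene and less RNA per cell cannot be told apart.

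The day 2 arrays were processed in 2 sessions by the dates in the array files, with 2 arrays of every group in each, replicates 1 and 2 in session 1 and replicates 3 and 4 in session 2. In session 1 the EBF1 and PPARg arrays shared 1 date entry, and the vector arrays carried an earlier one. In session 1 vector and date entry therefore cannot be told apart. In session 2 the EBF1 arrays carried a later entry than the PPARg and vector arrays, and only the EBF1 arrays had a full wash log there. Date entry and insert therefore cannot be told apart in that session. The entries are dates given by the operator, and what step they mark is not stated. The EBF1 arrays were less alike than the PPARg arrays, with mean absolute log2 differences between replicates of 0.135 to 0.288 against 0.103 to 0.178. EBF1 replicate 3 lay closest to vector replicate 2, at 0.185. EBF1 replicates 1 and 2 also lay closest to a vector array, at 0.134 and 0.157, although replicate 1 was nearly as close to EBF1 replicate 4, at 0.135. Each PPARg array lay closest to another PPARg array. The counts over all genes and over the gene lists described first are therefore also given without EBF1 replicates 2 and 3. Array medians ran from 145.9 to 164.2 for EBF1 and from 161.3 to 164.1 for PPARg. The 3′ to 5′ signal ratio, a sign of RNA quality, was 0.944 to 0.975 for Gapdh on EBF1 arrays and 0.890 to 0.928 on PPARg arrays, without overlap, and 1.29 to 1.41 and 1.18 to 1.37 for b-Actin. The vector arrays had Gapdh ratios of 0.922 to 1.03. The part of this difference in the results below was not tested.

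The transduced genes gave a weak readout on this array. The Ebf1 probe set read 145, 198, 207 and 168 in EBF1 cells, against 147, 135, 168 and 160 in PPARg cells, and the arrays overlapped (log2 difference 0.22 ± 0.17 SE, adjusted p = 0.493 in limma). The Pparg probe set read 66.2, 67.2, 70.4 and 82.4 in EBF1 cells, against 106, 111, 86.6 and 93.0 in PPARg cells. All 4 PPARg arrays were above all 4 EBF1 arrays, but the difference of -0.47 ± 0.17 did not pass the test (adjusted p = 0.115). Whether either probe set lies within the transduced sequence was not tested, so these values do not check the labels. Of 30 tested marker genes of macrophages, endothelium, skeletal muscle, osteoblasts, chondrocytes, B lymphocytes and epithelium, 0 passed in limma and 1 had an unadjusted p under 0.05. Over all genes these shares were 5.34% and 16%. The median log2 difference of these markers was -0.18. The summed macrophage markers ran from 941 to 1319 in EBF1 cells and from 1242 to 1369 in PPARg cells, with Ptprc and Mrc1 at the floor on all 8 arrays. The preadipocyte gene Dlk1 read between 3552 and 4977 on the EBF1 arrays and between 3594 and 4555 on the PPARg arrays. Of the 20 tested preadipocyte and mesenchymal markers, its list, 3 were higher (Ptx3, Sfrp1 and Sfrp2) and 1 lower (Thy1). Over all genes 3.85% were higher and 1.49% lower. At an unadjusted p under 0.05, 3 of the 20 were higher and 7 lower, with a median of -0.16 over the list. Without EBF1 replicates 2 and 3 together 1 passed as higher and 0 as lower.

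At day 2, 308 of 5766 genes differed between EBF1 and PPARg cells (5.34%, limma, adjusted p at most 0.05). Of these, 222 were higher in EBF1 cells (3.85%) and 86 were lower (1.49%), and the median log2 difference over all tested genes was -0.03. The 4 EBF1 arrays lay wholly above or below the 4 PPARg arrays for 218 of the 222 and for 84 of the 86. Those 302 genes (5.24%) had the same sign in both sessions, which follows from the lack of overlap. Without the test, 1034 genes (17.9%) had non-overlapping arrays. An unadjusted p of at most 0.05 in limma was found for 922 genes (16%). Over probe sets, 392 of 7619 passed (5.15%), 284 higher (3.73%) and 108 lower (1.42%). A difference of at least 1 on the log2 scale was found for 38 genes that were higher and 11 that were lower. Without EBF1 replicate 2 the counts were 142 higher and 74 lower, without replicate 3 they were 168 and 66, and without replicates 2 and 3 together they were 86 and 47.

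The largest differences were in secreted proteins of the acute phase response. Ptx3, the long pentraxin of innate immunity, read 1890, 1957, 1608 and 1406 in EBF1 cells, against 149, 169, 153 and 161 in PPARg cells. The lowest EBF1 array was thus far above the highest PPARg array, and the log2 difference was 3.43 ± 0.33, a 10.8-fold higher level (adjusted p = 9.25e-11). Hp, haptoglobin, which binds free haemoglobin in plasma and is also made by fat cells, read 3984, 3979, 3866 and 3928 in EBF1 cells, against 556, 586, 442 and 391 in PPARg cells. Its EBF1 arrays were nearly identical, and the difference was 3.02 ± 0.28, or 8.09-fold (adjusted p = 7.22e-11). Non-overlap was a condition of the ranking that named Ptx3 and Hp.

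The vector cells at day 2 did not hold 1 level of either gene. Ptx3 read 737 and 739 in the session 1 vector arrays, against 236 and 177 in those of session 2, and Hp read 2867 and 3174 against 945 and 776. The EBF1 and PPARg arrays differed less between sessions for these genes, and EBF1 minus PPARg was 3.60 and 3.26 for Ptx3 and 2.80 and 3.23 for Hp in sessions 1 and 2.

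**Figure D1:**
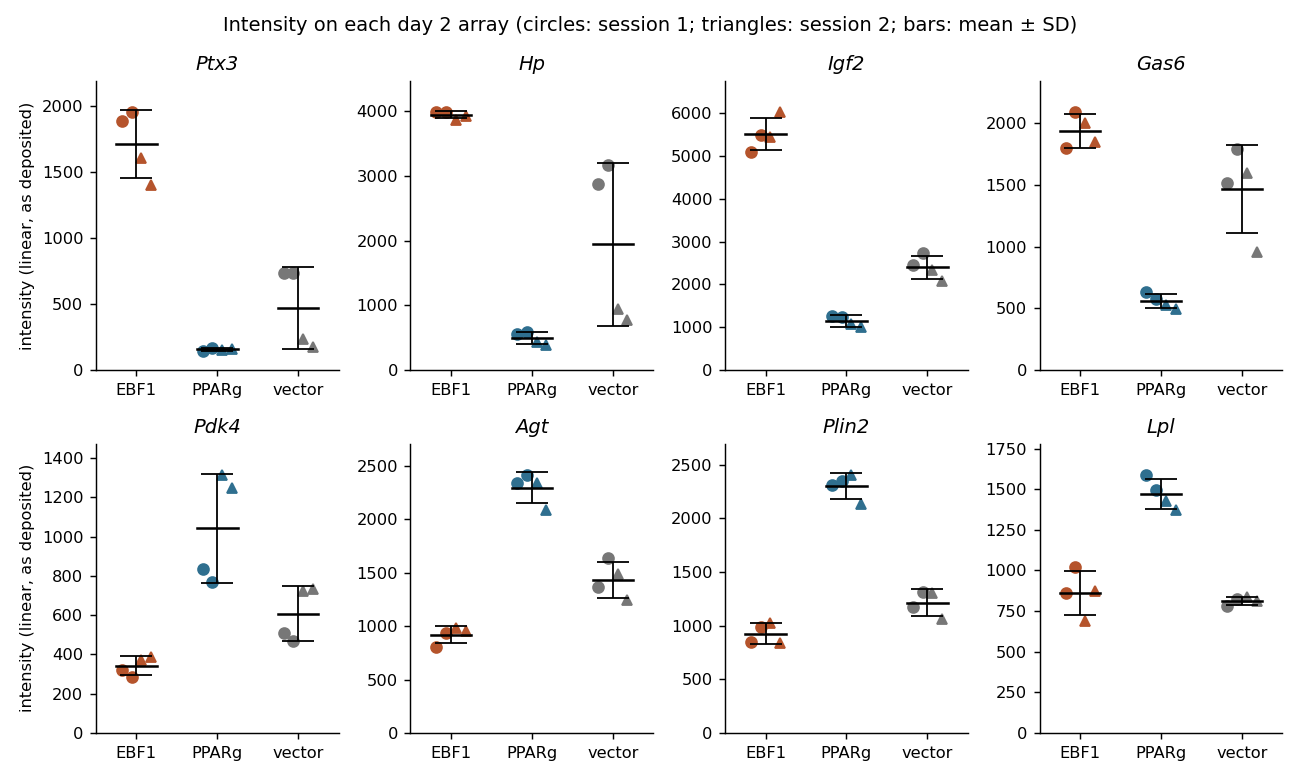
Intensity of 8 genes on each day 2 array, on a linear axis from 0, for EBF1, PPARg and vector cells. Circles are session 1 arrays, triangles session 2 arrays, and bars the mean ± SD of 4 arrays. The EBF1 and PPARg points do not overlap for any of the 8 genes, while the vector points of Ptx3 and Hp split by session. For all but Lpl, non-overlap was a condition of the ranking of largest differences that holds them.

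Of 17 tested acute phase, cytokine and chemokine genes, 7 were higher in EBF1 cells, 3 were lower and 7 did not pass, with a median of 0.12. Over all genes 3.85% were higher and 1.49% lower. Saa2, a serum amyloid A protein, read 2315, 2263, 1820 and 2434 in EBF1 cells, against 1075, 1052, 706 and 801 in PPARg cells (1.30 ± 0.33, adjusted p = 0.00801). Its groups did not overlap, although another Saa2 probe set did not pass. Cxcl5, a neutrophil-attracting chemokine, read 205, 170, 159 and 172 in EBF1 cells, against 77.2, 65.0, 71.7 and 79.4 in PPARg cells (1.26 ± 0.15, adjusted p = 1.39e-08). With the floor at the 40th percentile, above all 4 PPARg values, the Cxcl5 difference was 0.61. Cxcl12, the ligand of the receptor CXCR4, was higher by 0.82 ± 0.19 (adjusted p = 0.00431), and its other 2 probe sets were higher by 1.11 and 1.43. Lower members were Cx3cl1, a membrane-bound chemokine, at -0.77, and the acid glycoproteins Orm1 at -0.61 and, close to the threshold with an adjusted p of 0.0496, Orm2 at -0.37, which share sequence and may share probes. Cx3cl1, Orm1 and Orm2 were named after their values were seen. Ccl2 did not pass (-0.22 ± 0.29, adjusted p = 0.657). Without EBF1 replicate 3, 5 members were higher and 2 were lower, and without replicates 2 and 3 together 3 and 1.

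Genes of cytokine receptors were also among the higher genes. Osmr, the oncostatin M receptor, read 1554, 1462, 1437 and 1472 in EBF1 cells, against 495, 473, 460 and 425 in PPARg cells (1.68 ± 0.26, adjusted p = 6.28e-06). The groups were far apart and each was tight, although non-overlap was a condition of the ranking that named Osmr. The following genes were chosen after their values were seen. Il6st, the signalling chain gp130 that Osmr pairs with, was higher by 1.54 ± 0.19, Il13ra1, a chain of the interleukin 13 receptor, by 1.53 ± 0.13, and Il1r1, the interleukin 1 receptor, by 1.51 ± 0.21. Jak2, a kinase that some cytokine receptors use, was higher by 1.08 ± 0.15. All 4 passed, with adjusted p-values from 2.24e-11 to 9.76e-07.

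Of 14 tested insulin-like growth factor and insulin signalling genes 2 were higher, 0 were lower and 12 did not pass, with a median of -0.08. Over all genes 3.85% were higher and 1.49% lower. Igf2, a fetal insulin-like growth factor, read 5101, 5493, 5430 and 6022 in EBF1 cells, against 1275, 1241, 1069 and 1007 in PPARg cells and 2460, 2729, 2339 and 2077 in vector cells. The 3 groups did not overlap, and EBF1 minus PPARg was 2.27 ± 0.35 (4.82-fold, adjusted p = 8.66e-06). For EBF1 against PPARg, non-overlap was a condition of the ranking that holds Igf2. Gas6, a ligand of the TAM receptor kinases that is known as a growth arrest gene of fibroblasts, read 1798, 2088, 2002 and 1843 in EBF1 cells, against 631, 578, 530 and 498 in PPARg cells (1.79 ± 0.21, adjusted p = 3.12e-08). Pros1, protein S, the other vitamin K-dependent ligand of those receptors, read 287, 383, 323 and 248 in EBF1 cells, against 81.9, 89.7, 83.3 and 84.8 in PPARg cells (1.85 ± 0.24, adjusted p = 1.36e-07). Both ligands were thus higher on every EBF1 array, as the rule that named them required. Gas6 and Pros1 were named as 2 of the 12 largest differences and stand for no list.

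The remaining genes with the largest positive differences have varied roles. Fmr1, an RNA-binding regulator of translation, was higher by 1.79 ± 0.21, Ugcg, glucosylceramide synthase, by 1.76 ± 0.15, Tmem45a by 1.74 ± 0.20, Phlda1 by 1.74 ± 0.20 and Ccn5 by 1.62 ± 0.28. Non-overlapping arrays were a condition for naming these 5, and a further Ugcg probe set also passed. Tmem45a lay close to the floor in PPARg cells, at 62.2 to 66.7, and with the floor at the 40th percentile its difference was 0.91. Fmr1 again split the vector arrays by session, at 428 and 408 in session 1 against 209 and 182 in session 2, but read 616 to 664 on the EBF1 arrays and 179 to 193 on the PPARg arrays.

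Of 42 tested matrix and collagen genes, 9 were higher in EBF1 cells and 3 were lower, with a median of -0.06. Over all genes 3.85% were higher and 1.49% lower. Without EBF1 replicates 2 and 3 together 4 were higher and 3 lower. Lum, lumican, a small leucine-rich proteoglycan of collagen fibrils, read 1074, 1147, 1011 and 773 in EBF1 cells, against 286, 295, 237 and 241 in PPARg cells (1.91 ± 0.30, adjusted p = 8.69e-06). Dcn, decorin, of the same family, read 6126, 6063, 6295 and 6468 in EBF1 cells, against 3405, 3514, 2918 and 2875 in PPARg cells (0.98 ± 0.12, adjusted p = 3.19e-08). For both proteoglycans the lowest EBF1 array exceeded the highest PPARg array, which for Lum was a condition of the ranking that named it. The basement membrane protein Nid2 was higher by 1.04 ± 0.27. Sparcl1, a matricellular protein, had 368, 420, 460 and 401 in EBF1 cells, against 820, 857, 1039 and 1033 in PPARg cells (-1.18 ± 0.20, adjusted p = 5.38e-05). The chief fibrillar collagen gene Col1a1 did not pass (-0.49 ± 0.22, adjusted p = 0.266), while its other probe set passed as lower. Of 16 matrix protease and inhibitor genes, 4 were higher, among them Timp1, an inhibitor of metalloproteinases (0.74 ± 0.09), Serpina3n (1.09 ± 0.14) and Adam9 (0.74 ± 0.13), and 1 was lower.

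The gene list with the largest share of differing members was glycolysis and hypoxia response, where 15 of 22 tested genes were higher in EBF1 cells, 0 were lower and 7 did not pass, with a median of 0.59. At an unadjusted p under 0.05 the count was also 15 higher and 0 lower. Over all genes 3.85% were higher and 1.49% lower in the test, and 16% had such an unadjusted p. Pfkl, liver phosphofructokinase, read 1032, 1256, 1265 and 1173 in EBF1 cells, against 557, 546, 583 and 501 in PPARg cells (1.11 ± 0.19, adjusted p = 3.83e-05). Eno2, an enolase, read 234, 219, 220 and 200 in EBF1 cells, against 88.9, 90.2, 108 and 104 in PPARg cells (1.16 ± 0.16, adjusted p = 7.97e-07). Pgk1, phosphoglycerate kinase, read 2553, 2698, 2573 and 2344 in EBF1 cells, against 1293, 1346, 1362 and 1207 in PPARg cells (0.97 ± 0.18, adjusted p = 0.000124). The groups were well apart for all 3 enzymes.

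Regulators and carriers on the list were also higher. Pdk1, a kinase that turns off pyruvate dehydrogenase and a known hypoxia gene, was higher by 0.98 ± 0.18 (adjusted p = 9.51e-05), and Slc2a1, the glucose transporter GLUT1, by 0.60 ± 0.12 (adjusted p = 0.000549). The other passing members, named after their values were seen, were P4ha1, Ndrg1, Pkm, Tpi1, Bnip3, Ldha, Egln1, Hif1a, Pgam1 and Aldoa, between 0.90 and 0.32. Ldha, lactate dehydrogenase A, read 4196, 4244, 4190 and 4122 in EBF1 cells, against 2932, 2895, 2404 and 2261 in PPARg cells (0.68 ± 0.15, adjusted p = 0.00117). Those that did not pass included hexokinase Hk2 at -0.13 ± 0.09 and the angiogenic factor Vegfa at 0.27 ± 0.16.

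Without EBF1 replicate 3, 14 members were higher and 0 lower, and without replicates 2 and 3 together 10 and 0. Session 1 alone gave 12 higher and session 2 alone 13 higher, with 0 lower in each.

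**Figure D2:**
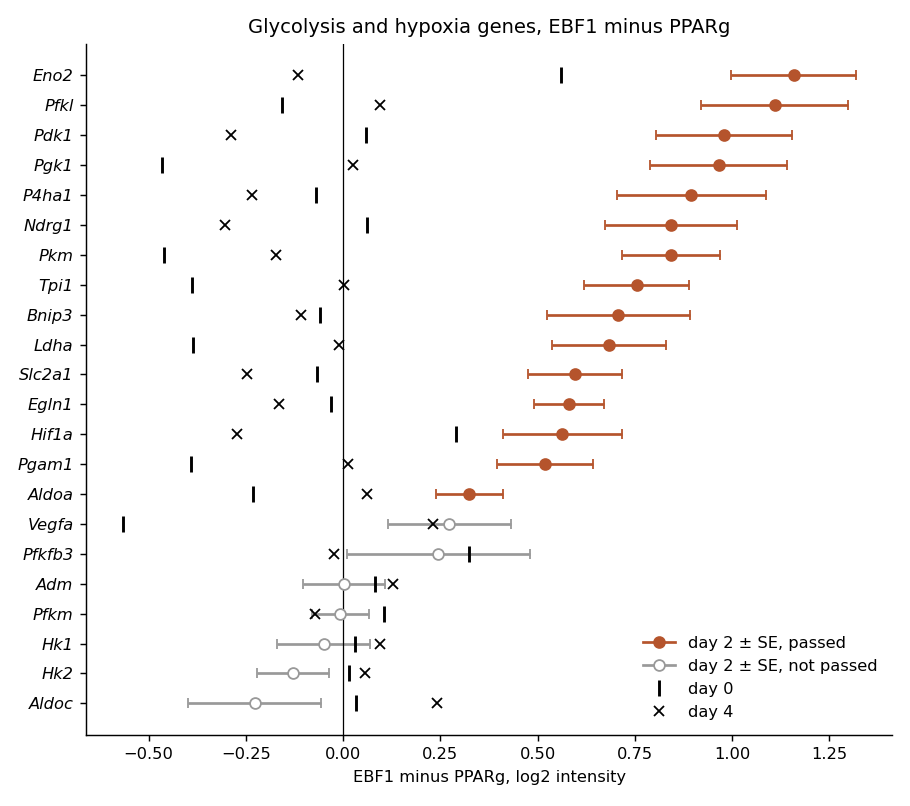
EBF1 minus PPARg on the log2 scale for the 22 tested genes of the glycolysis and hypoxia list. Points with bars are day 2 estimates ± SE, filled where they passed the test; ticks are day 0 and crosses day 4 estimates. The 15 filled points lie between 0.32 and 1.16, to the right of the day 4 crosses.

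Promoters of members are shown because this list had the largest share of passing genes and because the core of the hypoxia response element, ACGTG, has a short known sequence. It was chosen after the values were seen. Each window runs from 250 bases before to 50 bases after the gene start in RefSeq (GRCm38.p6), 5′ to 3′ on the gene's strand, and matches to ACGTG on either strand are in capitals, so that overlapping matches read CACGTG.

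Ldha: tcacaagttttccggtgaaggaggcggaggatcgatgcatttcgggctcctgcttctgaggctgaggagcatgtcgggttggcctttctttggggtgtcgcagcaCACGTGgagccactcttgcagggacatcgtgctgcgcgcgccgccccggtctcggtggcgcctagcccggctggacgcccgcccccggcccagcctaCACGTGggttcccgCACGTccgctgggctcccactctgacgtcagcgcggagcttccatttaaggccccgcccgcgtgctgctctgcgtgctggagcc
Pgk1: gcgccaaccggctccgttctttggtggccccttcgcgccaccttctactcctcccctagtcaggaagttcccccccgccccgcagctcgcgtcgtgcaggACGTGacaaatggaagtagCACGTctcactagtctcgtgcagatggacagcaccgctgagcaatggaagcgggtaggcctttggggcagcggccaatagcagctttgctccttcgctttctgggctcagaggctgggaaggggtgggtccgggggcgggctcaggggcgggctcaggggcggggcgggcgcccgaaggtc

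The Ldha window lies at chr7:46845554-46845853 and the Pgk1 window at chrX:106186850-106187149, both on the plus strand. Counting both strands, the Ldha window holds 5 matches and the Pgk1 window 2. Of the 15 passing members, 14 were matched to a promoter and 8 of them (57.1%) hold ACGTG, as do 12 of the 21 matched members of the whole tested list (57.1%). ACGTG stands in 19.7% of all 27025 RefSeq promoters of this length. It stands in 50 of the 175 matched genes higher in EBF1 cells (28.6%) and in 15 of the 64 matched genes lower in them (23.4%). Pfkl and Eno2, with the largest differences, hold none in this window. The match is a description of letters and not of binding.

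The genes lower in EBF1 cells, that is higher in PPARg cells, held lipid handling genes. Of 30 tested adipocyte markers 0 were higher, 6 were lower and 24 did not pass, with a median of -0.14. Of 26 PPAR target genes 0 were higher, 5 were lower and 21 did not pass, with a median of -0.17. At an unadjusted p under 0.05, 1 adipocyte marker was higher and 9 were lower, and 0 PPAR target genes were higher and 11 lower. Over all genes 3.85% were higher and 1.49% lower in the test, and 16% had such an unadjusted p. Some genes stand in both lists. Without EBF1 replicates 2 and 3 together 4 adipocyte markers and 4 PPAR target genes were lower, and 0 of either list were higher.

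Pdk4, a pyruvate dehydrogenase kinase that shifts cells to fatty acid fuel and a classic PPAR target, read 322, 286, 373 and 389 in EBF1 cells, against 837, 771, 1315 and 1245 in PPARg cells and 507, 469, 721 and 732 in vector cells. PPARg and vector arrays were higher in session 2 than in session 1. The difference was -1.58 ± 0.23, a 2.98-fold higher level in PPARg cells (adjusted p = 1.83e-06), and it was -1.40 and -1.75 in sessions 1 and 2. Plin2, the coat protein of small lipid droplets, read 844, 986, 1028 and 840 in EBF1 cells, against 2314, 2348, 2407 and 2131 in PPARg cells (-1.32 ± 0.15, adjusted p = 1.88e-08). Agt, angiotensinogen, read 806, 931, 987 and 950 in EBF1 cells, against 2340, 2419, 2341 and 2090 in PPARg cells (-1.32 ± 0.16, adjusted p = 3.12e-08). For Plin2 and Agt the lowest PPARg array stood far above the highest EBF1 array, although non-overlap was a condition of the ranking that named them.

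Lpl, lipoprotein lipase, which frees fatty acids from circulating lipoproteins, read 862, 1019, 686 and 876 in EBF1 cells, against 1589, 1496, 1427 and 1372 in PPARg cells (-0.79 ± 0.13, adjusted p = 2.43e-05). A dimmer Lpl probe set had a difference of -0.90 ± 0.28 and narrowly missed the test (adjusted p = 0.0502). Plin4, another droplet coat protein, read 97.6, 98.1, 102 and 124 in EBF1 cells, against 183, 181, 237 and 228 in PPARg cells (-0.97 ± 0.18, adjusted p = 0.000114). Ephx2, soluble epoxide hydrolase, was lower, at -1.21 ± 0.23 and Pex11a, a factor of peroxisome division, at -0.64 ± 0.16 (adjusted p = 0.000168 and 0.00703). None of these 4 genes overlapped between the groups, which for Plin4 and Ephx2 was a condition of the ranking that named them.

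Many genes of the mature fat cell were not told apart at day 2. Fabp4, the fatty acid binding protein aP2, read 53.8, 70.3, 125 and 84.9 in EBF1 cells, against 136, 80.4, 59.8 and 47.4 in PPARg cells (0.05 ± 0.36). Its difference was -0.76 in session 1 and 0.85 in session 2, so that the order of the groups turned between sessions. Adipoq, adiponectin, was likewise at -0.27 and 0.59 in the 2 sessions (0.16 ± 0.23), and its values of 62.2 to 108 lay near the floor of 54.5. Cd36, Cebpa, Lep and Angptl4 had differences of -0.20 ± 0.20, -0.28 ± 0.20, -0.29 ± 0.17 and -0.13 ± 0.15 with overlapping arrays. The early adipogenic factors Cebpb and Cebpd, which read 1362 to 1884 and 1647 to 2340 on the 8 arrays, had 0.12 ± 0.19 and -0.19 ± 0.19. Dlk1, which falls in maturing fat cells, had 0.04 ± 0.15. Ccn2 was below the floor on all 8 arrays and has no difference.

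Other lipid lists were also examined, against 3.85% higher and 1.49% lower over all genes. Of 15 lipogenic enzymes 2 were lower, Lpin1, lipin 1 (-0.69 ± 0.17), and Scd2, a stearoyl-CoA desaturase (-0.52 ± 0.11, with another Scd2 probe set that did not pass), and 0 were higher. Of 25 fatty acid oxidation and peroxisome genes 1 was lower, Pex11a. Of 13 cholesterol synthesis genes 2 were higher, Ebp (0.96 ± 0.19) and Sqle, squalene epoxidase (0.73 ± 0.14), while the median of that list was -0.15. Scarb1, the HDL receptor, was higher by 0.99 ± 0.18.

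The promoter of Plin2 is shown as the lipid droplet gene with the largest difference, with capitals marking AGGTCA, a core site of nuclear receptors, on either strand; it lies at chr4:86670010-86670309 on the minus strand (GRCm38.p6, RefSeq).

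Plin2: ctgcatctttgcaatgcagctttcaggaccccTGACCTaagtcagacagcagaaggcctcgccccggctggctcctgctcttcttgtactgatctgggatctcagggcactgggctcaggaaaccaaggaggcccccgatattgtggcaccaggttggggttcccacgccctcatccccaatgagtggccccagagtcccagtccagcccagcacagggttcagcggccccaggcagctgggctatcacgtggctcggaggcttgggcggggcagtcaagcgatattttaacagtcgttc

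It holds 1 match. Of the 9 passing genes of the adipocyte and PPAR lists, 6 were matched to a promoter and 1 holds AGGTCA (16.7%), as do 8 of the 32 matched genes of both whole tested lists (25%) and 16% of all promoters. Over the 63 matched of the 91 named genes, AGGTCA stood in 9 (14.3%), CCAAT in 29 (46%, against 37.9% of all promoters) and TTTGAA in 7 (11.1%, against 18.1%). The Pdk4 window holds no AGGTCA.

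The other genes with the largest negative differences were secreted or membrane proteins and stress genes. Ptn, pleiotrophin, a heparin-binding growth factor, read 102, 59.3, 93.7 and 109 in EBF1 cells, against 207, 163, 302 and 319 in PPARg cells (-1.43 ± 0.29, adjusted p = 0.000549). Serpinf1, the anti-angiogenic factor PEDF, read 280, 333, 284 and 246 in EBF1 cells, against 658, 626, 612 and 611 in PPARg cells (-1.14 ± 0.20, adjusted p = 9.54e-05), though its other probe set did not pass. Sat1, which acetylates polyamines, was lower, at -1.07 ± 0.18, the membrane protein Emp1 at -1.05 ± 0.15 and Sesn1, a stress protein and p53 target, at -1.03 ± 0.15. Groups without overlap were a condition for naming these 5. Mgst3, a microsomal glutathione transferase, averaged -1.01 ± 0.18 (adjusted p = 6.34e-05), but it was -1.65 in session 1 and -0.38 in session 2. Its arrays read 521, 516, 920 and 871 in EBF1 cells, against 1611, 1633, 1201 and 1134 in PPARg cells. Cd24a, a surface glycoprotein of early B cells and other cells, was the 1 differing gene among 10 EBF1-linked B-lineage genes, at -0.83 ± 0.13 (adjusted p = 1.05e-05). Over all genes 1.49% were lower.

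**Figure D3:**
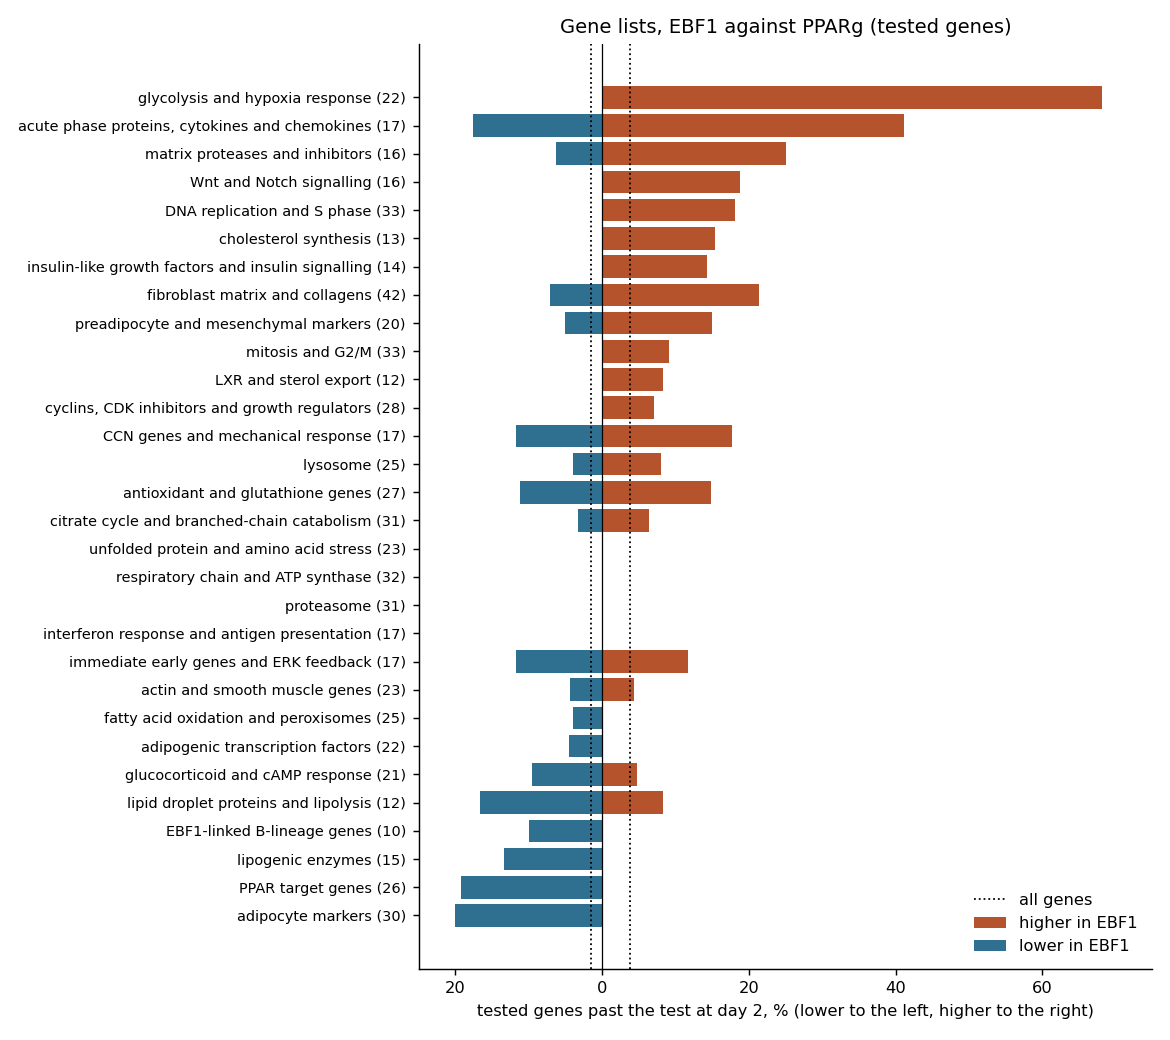
Share of the tested genes of each list that passed at day 2, in percent, for the lists with at least 10 tested genes (number in brackets). Bars to the right are genes higher in EBF1 cells and bars to the left genes lower in EBF1 cells; dotted lines are the shares over all genes, 3.85% and 1.49%. The glycolysis and hypoxia list reaches farthest to the right, with 15 of 22, and the adipocyte markers farthest to the left, with 6 of 30.

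The cell cycle genes that passed at day 2 were all higher in EBF1 cells. Of 33 mitosis genes 3 were higher (9.09%, against 3.85% of all genes) and 0 lower, with a median of 0.05, and at an unadjusted p under 0.05 the counts were 6 and 2. Over all genes 16% had such an unadjusted p, in either direction. Top2a, the DNA topoisomerase of dividing cells, read 1214, 1374, 1431 and 1467 in EBF1 cells, against 665, 683, 486 and 445 in PPARg cells (1.29 ± 0.19, adjusted p = 3.4e-06). The vector arrays, at 1329, 1333, 1371 and 993, lay close to the EBF1 arrays. Of 33 replication genes 6 were higher (18.2%) and 0 lower, with a median of 0.12. Mcm7, of the replicative helicase, was higher by 0.52 ± 0.11 (adjusted p = 0.00058). These counts were small in part of the data: 4 replication genes without EBF1 replicate 3, 1 without replicates 2 and 3 together, 1 in session 1 alone and 3 in session 2 alone. Of the mitosis genes 2 were higher without EBF1 replicate 3 and 1 without replicates 2 and 3 together. Myc, a growth-promoting transcription factor, was higher by 0.60 ± 0.12.

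Antioxidant genes went both ways, 4 of 27 higher and 3 lower, against 3.85% higher and 1.49% lower over all genes. Sod2, the mitochondrial superoxide dismutase, read 875, 913, 800 and 802 in EBF1 cells, against 446, 443, 395 and 376 in PPARg cells (1.03 ± 0.20), and Gsr, glutathione reductase, was higher by 0.78 ± 0.12. Gstm1, a glutathione transferase, was lower, at -0.67 ± 0.12. Idh2, the mitochondrial NADP isocitrate dehydrogenase, read 2627, 2989, 2822 and 2571 in EBF1 cells, against 1286, 1298, 1434 and 1212 in PPARg cells (1.07 ± 0.19, adjusted p = 6.34e-05). Of 32 respiratory chain and ATP synthase genes 0 passed and 0 had an unadjusted p under 0.05, and of 31 proteasome genes likewise 0 and 0. The 23 unfolded protein and amino acid stress genes had 0 passing and 3 at an unadjusted p under 0.05, the 17 interferon genes 0 and 2, the 6 retinoid genes 0 and 1, and the 2 tested brown fat genes 0 and 0. Over all genes 5.34% passed and 16% had such an unadjusted p.

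The same genes were set beside the vector at day 2. The comparisons with vector share the vector arrays and the arrays of the main comparison, so their values are only given side by side. EBF1 differed from vector at day 2 for 90 genes (1.56%), 51 higher (0.884%) and 39 lower (0.676%), and PPARg differed from vector for 37 (0.642%), 10 higher (0.173%) and 27 lower (0.468%). The vector mean lay between the EBF1 and PPARg means for 212 of the 222 higher and for 73 of the 86 lower genes. These genes were chosen for a gap between those 2 means, which by itself favours such a position. The share over all genes was not computed, so no conclusion is drawn from these counts. For Ptx3, EBF1 minus vector was 2.13 and PPARg minus vector -1.30, and both passed. Gas6 had 0.44 in EBF1 cells and -1.36 in PPARg cells, and the PPARg value alone passed. For Plin2 the values were -0.39 and 0.93 and for Lpl 0.07 and 0.85, again with the PPARg value passing. Ccn5 had 1.28 and -0.34 and Sat1 -1.06 and 0.01, with the EBF1 value passing. In the glycolysis and hypoxia list EBF1 was higher than vector for 8 of 22 genes (median 0.46), while PPARg differed from vector for 0 of 22, or 4 at an unadjusted p under 0.05, all lower (median -0.10). The vector arrays of the 2 sessions differed for several of these genes, as given above for Ptx3, Hp and Fmr1, and their part in these counts was not tested.

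The comparison was then followed over the days, on separate arrays. EBF1 and PPARg cells differed for 367 genes at day 0 (6.36%), 141 higher (2.45%) and 226 lower (3.92%), and for 356 at day 4 (6.17%), 115 higher (1.99%) and 241 lower (4.18%). Of the 222 genes higher at day 2, 38 were also higher at day 0 (17.1% of the day 2 list and 27% of the day 0 list), and 18 were lower there. With day 4, 16 were shared (7.21% of the day 2 list and 13.9% of the day 4 list). Of the 86 genes lower at day 2, 13 were lower at day 0 (15.1% and 5.75%) and 12 higher, and 40 were lower at day 4 (46.5% and 16.6%) and 0 higher. The median of those 86 genes was -0.27 at day 4, and that of the 222 was 0.02. Across all 5766 genes, which are not independent replicates, the day 2 difference correlated with that of day 0 at r = 0.044 (rho -0.099) and with that of day 4 at r = -0.035 (rho -0.292).

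The change in the difference itself was tested. The test against day 0 and the test against day 4 both use the day 2 arrays. A gene with a large day 2 difference is therefore favoured in both, with opposite signs. From day 0, EBF1 minus PPARg at day 2 had changed for 384 genes (6.66%), 265 upward (4.6%) and 119 downward (2.06%). Hp had the largest upward change among the 265, with a day 2 difference 2.90 ± 0.40 above that of day 0, where EBF1 minus PPARg was 0.12. Top2a moved by 2.33 ± 0.27, being lower in EBF1 cells at day 0 (-1.04) and higher at day 2. Mitosis genes as a list had 0 higher and 19 of 33 lower at day 0 (27 lower at an unadjusted p under 0.05), and 17 of 33 passed the test of the change, all upward. Replication genes had 0 higher and 16 of 33 lower at day 0, and 12 passed the test of the change, all upward. The glycolysis and hypoxia list had 1 higher and 3 lower at day 0, and 13 of 22 passed the test of the change, all upward. That list was singled out for its share at day 2, on the same day 2 arrays, so the 13 are no separate support.

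Of 42 matrix and collagen genes 2 passed the test of the change upward and 6 downward, and the other genes did not pass. Over all genes 4.6% passed upward and 2.06% downward. Postn, periostin, a matricellular protein, was 2.50 higher in EBF1 cells at day 0 and did not pass at day 2 (-0.25 ± 0.17), a change of -2.75 ± 0.24. At day 2 its difference was 0.21 in session 1 and -0.71 in session 2. Sparcl1 was higher in EBF1 cells at day 0 (1.39) and lower at day 2, a change of -2.57 ± 0.29. Cxcl12 was 1.96 higher at day 0, 0.82 at day 2 and 0.05 at day 4, the last without passing. Igf2 was higher on all 3 days, by 3.15, 2.27 and 1.31, and its change from day 0 to day 2 did not pass (-0.88, adjusted p = 0.38). Cd24a was lower by about the same amount on each day, at -0.84, -0.83 and -0.89.

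By day 4 the difference had changed again for 258 genes (4.47%), 67 upward (1.16%) and 191 downward (3.31%). Without EBF1 day 2 replicate 2 this count was 168, 39 upward. The upward count without 1 array ran from 37 (EBF1 day 2 replicate 3) to 122 (PPARg day 4 replicate 6). The day 4 minus day 2 change was -2.64 ± 0.41 for Ptx3 and -2.31 ± 0.35 for Hp. Gas6 and Fmr1, with changes of -1.79 and -1.77, were at 0.01 and 0.02 at day 4. In the glycolysis and hypoxia list 14 of 22 genes passed the test of this change, all downward, and at day 4 itself 0 of 22 passed, or 5 at an unadjusted p under 0.05, all lower. The test of this change again uses the day 2 arrays on which the list was singled out. Plin4 was lower on all 3 days, at -0.74, -0.97 and -1.27, and Agt and Plin2 were still lower in EBF1 cells at day 4 (-0.83 and -0.59). Lpl was at 0.06 on day 0 and -0.04 on day 4, so that it passed on day 2 alone of these 3 days, and its change from day 0 to day 2 passed (-0.85, adjusted p = 0.0015).

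**Figure D4:**
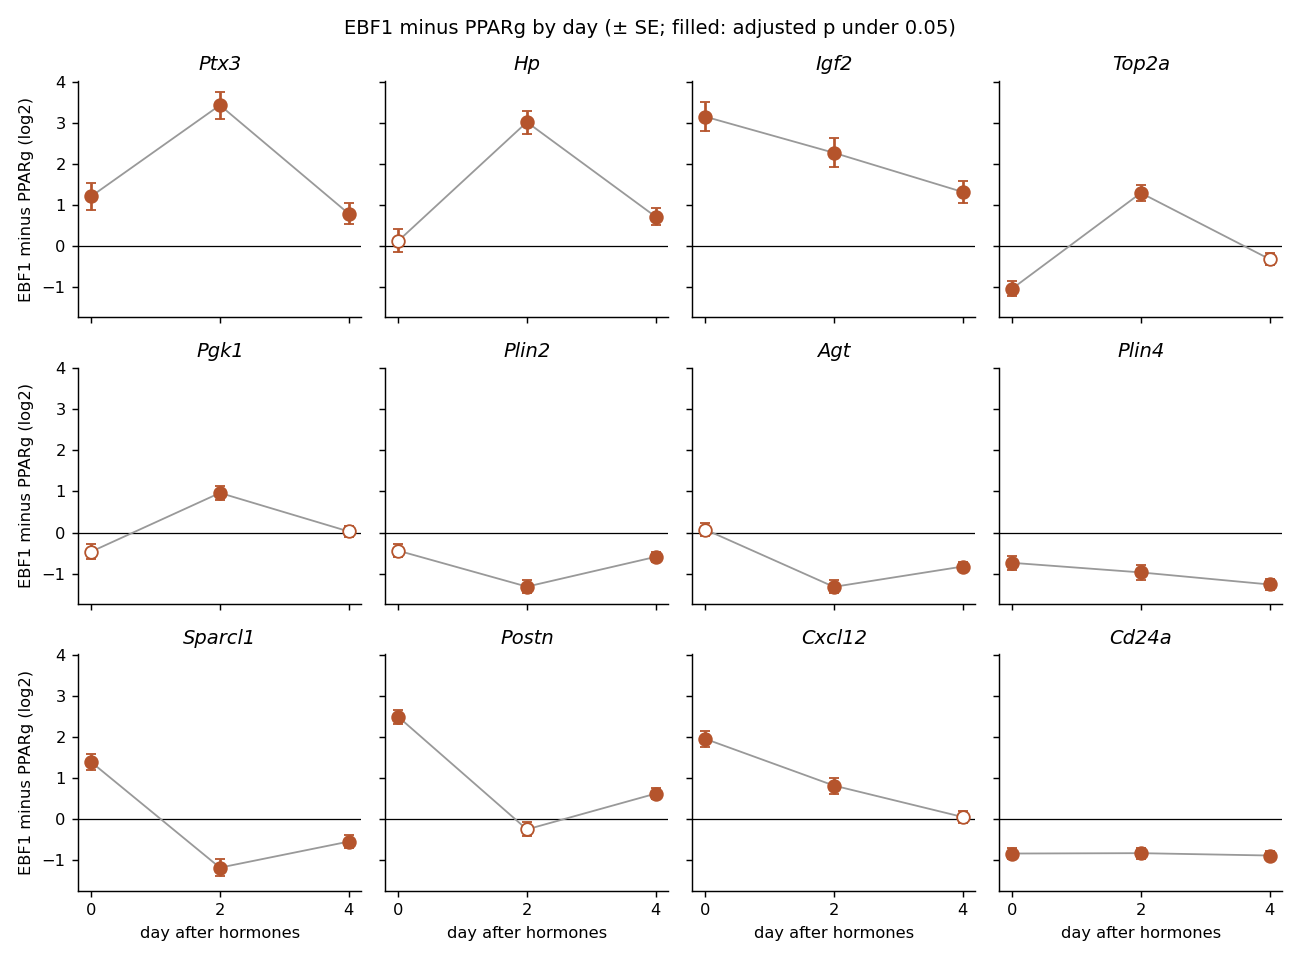
EBF1 minus PPARg on the log2 scale at days 0, 2 and 4 for 12 genes, with SE bars and filled points where the adjusted p was under 0.05. Each day has its own arrays, 4 and 4 at days 0 and 2 and 7 and 7 at day 4. Ptx3, Hp, Top2a and Pgk1 have their highest estimate at day 2, Igf2 and Cxcl12 at day 0, and the 3 estimates of Cd24a lie between -0.83 and -0.89.

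Every one of the 308 genes had the same sign in both sessions. For the 302 genes with non-overlapping arrays this was fixed in advance, so it is no separate check for them. The median session 1 and session 2 differences were 0.64 and 0.60 for the 222 higher genes and -0.59 and -0.62 for the 86 lower genes. Tested with session 1 arrays alone, 173 of the 222 and 63 of the 86 passed again, and with session 2 arrays alone 88 and 36. These arrays are those that the pooled test used, so this is a check within the data and no independent repeat.

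**Figure D5:**
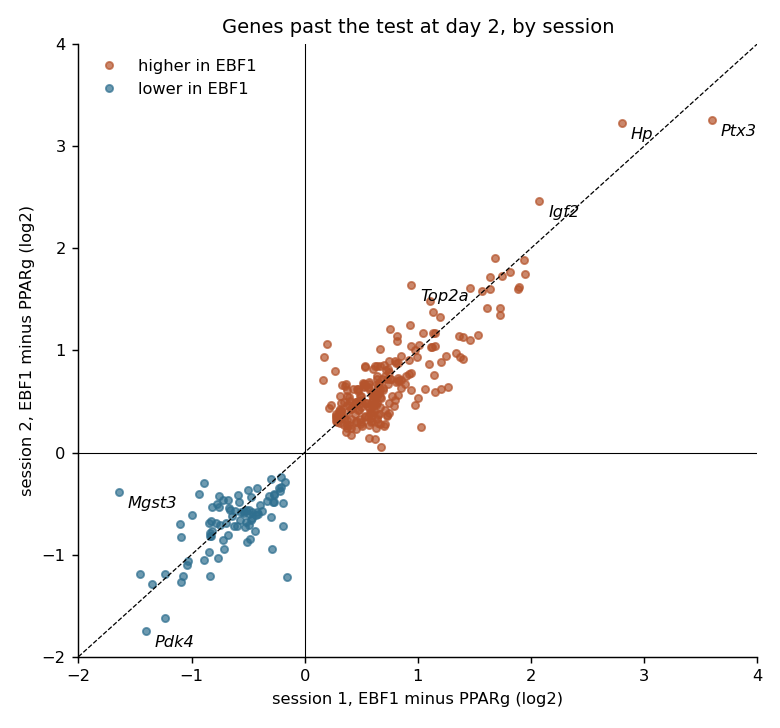
EBF1 minus PPARg on the log2 scale in session 1 (x axis) and session 2 (y axis) for the 308 genes past the pooled test, with 2 arrays a group in each session. Points higher in EBF1 cells all lie in the upper right quadrant and points lower in EBF1 cells in the lower left, with Mgst3 and Top2a off the dashed line of equality. For genes whose arrays did not overlap between the groups the quadrant is fixed in advance.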

How the data were processed

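The values are the authors' deposited linear intensities, 1 per probe set and array; the summarisation algorithm and scaling are not given in the sources used here. Values below 54.48 (the 20th percentile over all arrays) were set to that floor and log2 transformed from the deposited intensities. Of 12488 probe sets, 66 controls were left out, 10833 had 1 gene symbol, 396 had several and 1193 had none. The platform annotation was updated through Entrez identifiers for 10817. Probe sets above 157.96 on at least 2 arrays were kept (7619), and the one with the highest mean log2 value stood for each of 5766 genes. Groups came from the sample titles. All 53 arrays in 12 groups were fitted together in limma 3.58.1 under R 4.3.3, with contrasts and a threshold of 0.05. Benjamini-Hochberg adjustment was made over all 7619 tested probe sets, before 1 was taken for each gene. No second normalization was applied. The number of arrays limits the precision. On simulated data this procedure recovered 62.7%, 98.5% and 100% of probe sets changed by 0.5, 1 and 2 on the log2 scale. The simulated noise was independent between arrays, with 1 spread for each probe set. No session effect or outlying array was simulated, so recovery on the real arrays may be lower. The changed probe sets were drawn from those averaging above 157.96 in PPARg cells at day 2.

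Named genes were the 12 largest passing differences in each direction without overlap and with 1 sign in both sessions, the 4 largest changes in each direction between days, Pparg, Ebf1, a panel of 15 genes, and the 4 largest passing members of each list; others are marked where they occur. The comparison, members and lists were chosen with earlier results of these data known. Alternatives were quantile normalization, another floor, no or a stricter filter, only the groups compared, array weights, session or replicate as a block, single sessions, and each array left out. Replicates 2 and 3 of EBF1 were left out together as a choice made after seeing the data.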

Additional observations from a re-analysis of the deposited data

Results flagged for a closer look

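Among 182 groups of 4 arrays examined over 91 named genes, 4 held an array far from the other 3. Chance gives such a gap in about 1 in 20 groups. Neu1, a lysosomal sialidase, read 75.8 on EBF1 replicate 3, against 238 to 283 on the other EBF1 arrays. F3, tissue factor, read 287 on EBF1 replicate 3, against 239 to 247. Sqle read 342 on EBF1 replicate 4, against 387 to 397. Fzd1, a Wnt receptor, read 96.8 on PPARg replicate 3, against 75.8 to 78.7 on the other PPARg arrays.

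The difference between EBF1 and PPARg cells itself changed between days for the following genes, by limma's test of that change. Day 2 minus day 0 was 2.90 for Hp, 2.33 for Top2a, 2.22 for Ptx3 and 2.16 for Phlda1. It was -2.75 for Postn, -2.57 for Sparcl1, -1.91 for Ptn and -1.78 for Sat1. Day 4 minus day 2 was 1.35 for Impdh1, a purine synthesis enzyme, 1.33 for Ptn, 1.28 for Ccl2 and 1.20 for Serpinf1. It was -2.64 for Ptx3, -2.31 for Hp, -1.79 for Gas6 and -1.77 for Fmr1.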

How the results depend on the processing

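The count of genes that differed at day 2 was 308 in the reported fit. It was 498 when only the compared groups were fitted and 814 with array weights, of which 287 and 307 were among the 308. The array weights gave PPARg day 10 replicate 2 a weight of 53.2. Session 2 alone gave 136 genes, and 133 passed without EBF1 replicates 2 and 3 together. With 1 array left out the count was 214 to 313. For the change from day 0 (384 genes) it was 1062 with array weights, 645 with the replicate block and 622 with session as a block, and 289 to 434 with 1 array left out. For the change to day 4 (258 genes) it was 428 with only the compared groups, 1735 with array weights, 455 with the replicate block and 417 with session as a block, and 168 to 323 with 1 array left out. The share of upward changes to day 4 was 63.1% with array weights and 37.8% without PPARg day 4 replicate 6, against 26% in the reported fit; the cause was not tested. The other total counts stayed within 1.5 times the reported ones, but of the day 2 parts the 86 lower genes were 135 with the replicate block and 132 with session as a block. None of the 76 named genes that passed at day 2 changed sign under the alternatives run, whereas Fabp4, Adipoq, Postn and Dlk1, which did not pass, changed sign under some (Fabp4 was -0.03 with the floor at the 40th percentile and -0.33 with array weights). Of the 76, 76 passed with quantile normalization, 76 with the replicate block, 67 in session 1 alone, 50 in session 2 alone and 65 to 72 with 1 array left out. Without EBF1 replicates 2 and 3 together 49 passed and 27 did not. Those 27 included Ptn, Cxcl12, Ebp, Saa2, Nid2, Mcm7, Myc, Slc2a1 and Pex11a. Replicate numbers were not taken as pairs: deviations of same-numbered EBF1 and PPARg arrays correlated at 0.069, 0.19, 0.402 and 0.491, and EBF1 replicates 1 and 2 did not correlate best with their own number. With the replicate block 446 genes passed at day 2. Changes between days were not tested within single sessions. Probe sets near the floor of 54.48 can show only part of a difference.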
